A study of Mus musculus with 2 samples.

Results

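The nuclear transport machinery of mouse germ cells was described at the level of RNA through its nucleoporins and transport receptors. The genes were chosen by symbol, taking every row of the gene table whose symbol starts with Nup and a digit, Kpna, Kpnb, Ipo and a digit, Xpo or Tnpo, and leaving out symbols that mark a pseudogene with -ps. This gave 44 genes of 50686 gene rows, of which 27280 had at least 1 unique molecular identifier (UMI, a tag that counts each captured RNA molecule once). The data were single-cell transcriptomes of testis tissue from 2 wild-type C57Bl/6J Crl mice at 8 weeks of age, with no treatment or mutation. The comparisons therefore run between stages of sperm development, and the mice are the replicates. The matrix held 2552 cells, 1237 from mouse 1 and 1315 from mouse 2, with a median of 17871 and 19184 UMIs per cell and 0 cell barcodes shared between the mice.

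The nuclear pore complex is the channel through which RNA and proteins pass between nucleus and cytoplasm. Its scaffold consists of outer rings, built by the Y complex, and an inner ring, which hold a central channel lined with phenylalanine-glycine repeats, while filaments face the cytoplasm and a basket faces the nucleus. Importins and exportins carry cargo through it and are loaded and unloaded by the small GTPase Ran. Proteins with a classical nuclear localisation signal are bound by an importin alpha adaptor (Kpna), which is itself carried by importin beta (Kpnb1). In the testis, germ cells pass from meiotic spermatocytes to haploid round spermatids and then to elongating spermatids, in which histones are replaced by transition proteins and protamines and the nucleus condenses.

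Cells were clustered without the 44 members and without 45 further transport genes, and 6 germ cell clusters with at least 50 cells were put in order along diffusion pseudotime. They are called here early spermatocyte-like (163 cells), pachytene or later spermatocyte-like (527 cells, shortened to pachytene or later), Ssxb-high (688 cells), round spermatid-like (448 cells), early elongating (193 cells) and late elongating (514 cells). The pachytene or later cluster raised 7 of 14 markers of pachytene or later spermatocytes at least 1.5-fold and 5 of 9 markers of meiotic division, 2 of which, Ccna1 and Aurka, stand in both lists. Its mean standardised expression was 0.64 for the pachytene or later markers and slightly higher, 0.69, for those of meiotic division. The Ssxb-high cluster is named by its leading genes, Ssxb3, Ssxb1 and Ssxb2, because of the round spermatid markers it raised only these 3, beside 4 markers of meiotic division. Its mean standardised expression was 0.55 for the round spermatid markers and 0.52 for those of meiotic division. It is counted below neither with the spermatocytes nor with the spermatids. Both elongating clusters were elongating or condensing spermatid-like (13 and 14 of 15 markers), and the early one also raised 11 of 17 round spermatid markers. The clusters were built from other genes of the same cells, and the p-values measure the spread between 2 mice. Step 1 leads from the early spermatocyte-like to the pachytene or later cluster, step 2 to the Ssxb-high, step 3 to the round spermatid-like, step 4 to the early elongating and step 5 to the late elongating cluster.

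Levels are in CPM, UMI counts brought to a common total of gene UMIs in each cluster and mouse, after TMM scaling, an adjustment for RNA composition. Each pair of levels gives mouse 1 first and mouse 2 second. A level is thus relative to the other RNA of the same cells. The tags sit at the 3' end of a transcript and were not divided by its length, so that each gene is compared with itself. Late elongating cells held fewer UMIs (median 11304 and 12453 per cell in the 2 mice) than round spermatid-like cells (22451 and 21629). When UMIs per cell were compared in place of scaled levels, the median log2 fold change of all genes tested was 0.42, -0.82, -0.14, -0.45 and -1.51 at steps 1 to 5. With library size only it was -0.23, -0.09, -0.31, -0.57 and -0.59. RLE scaling moved that median to -0.27 at step 1 and 0.17 at step 5. As a measure that free RNA or doublets could affect, protamine and transition protein genes (Prm1, Prm2, Tnp1, Tnp2) stood in the early spermatocyte-like cluster at 2.1% to 3.7% of their CPM without TMM scaling in the late elongating cluster. Its part in the results was not tested.

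Of the 44 members, 43 passed the filter on low counts. The exception was Nup210, with 36 UMIs in all. At step 1, 17 of the 43 rose and 14 fell at an adjusted p under 0.05 (edgeR quasi-likelihood test), where 25.6% and 25% of all 13879 genes tested rose and fell. This came to 39.5% and 32.6% of the members tested. At step 2, 9 members rose and 16 fell, with a background of 32.3% rising and 30% falling. At step 3, 10 rose and 14 fell (background 26.6% and 19%). At step 4, 13 rose and 9 fell (background 22.9% and 21.9%), and at step 5, 8 rose and 11 fell (background 16.4% and 23.2%). Of the members tested, 20.9%, 23.3%, 30.2% and 18.6% rose at steps 2 to 5, and 37.2%, 32.6%, 20.9% and 25.6% fell. The rising share was above that of all genes at steps 1, 4 and 5 and below it at steps 2 and 3. The falling share was above that of all genes at steps 1, 2, 3 and 5 and below it at step 4. These differences were not tested. The split between rising and falling members depended on the scaling. With library size only, the counts of rising and falling members were 12 and 16, 9 and 20, 6 and 21, 6 and 18, and 1 and 17 at steps 1 to 5. In this fit 20.3% and 31.3%, 30.9% and 33.8%, 22% and 32.7%, 17.5% and 39.2%, and 6.1% and 36.6% of all genes rose and fell. For UMIs per cell they were 20 and 9, 4 and 33, 8 and 16, 8 and 14, and 0 and 31. In that fit 35.2% and 15.5%, 21.1% and 55.6%, 23.9% and 22.4%, 18.3% and 32.9%, and 0.339% and 63.6% of all genes rose and fell. RLE scaling gave 12 and 16 at step 1 (background 19.3% and 32.3%). Measured against the median of all genes, the members' median log2 fold change was higher by 0.15 and 0.12 at steps 1 and 5 and lower at steps 2, 3 and 4 (-0.26, -0.22 and -0.13). These signs were the same under the other 3 scalings. They changed at steps 1, 4 and 5 when cells were thinned to 5000 UMIs, and at step 4 with another random seed, with the 2000 most variable rows in the clustering and without mouse 1.

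The difference between the highest and the lowest cluster, in log2 of the mean level plus 1, had a median of 2.76 over the 42 members with at least 100 UMIs and ranged from 0.72 to 4.68, beside a median of 2.81 for all 12336 such genes. The test was passed at no step by 2 of the 43 members, Xpo6 and Kpna7 (4.68% of all genes). It was passed at all 5 steps by 5 members, Kpna1, Kpna4, Nup43, Nup107 and Nup133 (4.41% of all genes). Highest levels were found in the early spermatocyte-like cluster for 14 members, in the pachytene or later cluster for 10, in the Ssxb-high and the round spermatid-like cluster for 3 each, in the early elongating cluster for 7 and in the late elongating cluster for 6. Of all genes tested, 25.9%, 18.7%, 8.64%, 11.72%, 15.2% and 19.8% had their highest level in these clusters, in pseudotime order, beside 32.6%, 23.3%, 6.98%, 6.98%, 16.3% and 14.0% of the members. The highest cluster was the same in both mice for 37 of 43 members (86.0%), compared with 81.9% of all genes tested. The highest cluster by the mean of both mice was the same on the TMM scale, with library size only and with UMIs per cell for 26 members, of which Nup88, Kpna7 and Ipo13 had different highest clusters in the 2 mice. These were 12 members highest in the early spermatocyte-like cluster, 9 in the pachytene or later cluster, 2 in the round spermatid-like cluster (Nup160 and Nup62cl) and 3 in the early elongating cluster (Ipo13, Nup43 and Xpo7). All 6 members highest in the late elongating cluster on the TMM scale had another highest cluster on at least 1 of the other scales. Few genes of any kind were highest there on those scales, 8.26% of all genes tested with library size only and 1.84% with UMIs per cell. How many of all genes kept their highest cluster on the 3 scales was not counted.

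**Figure D1:**
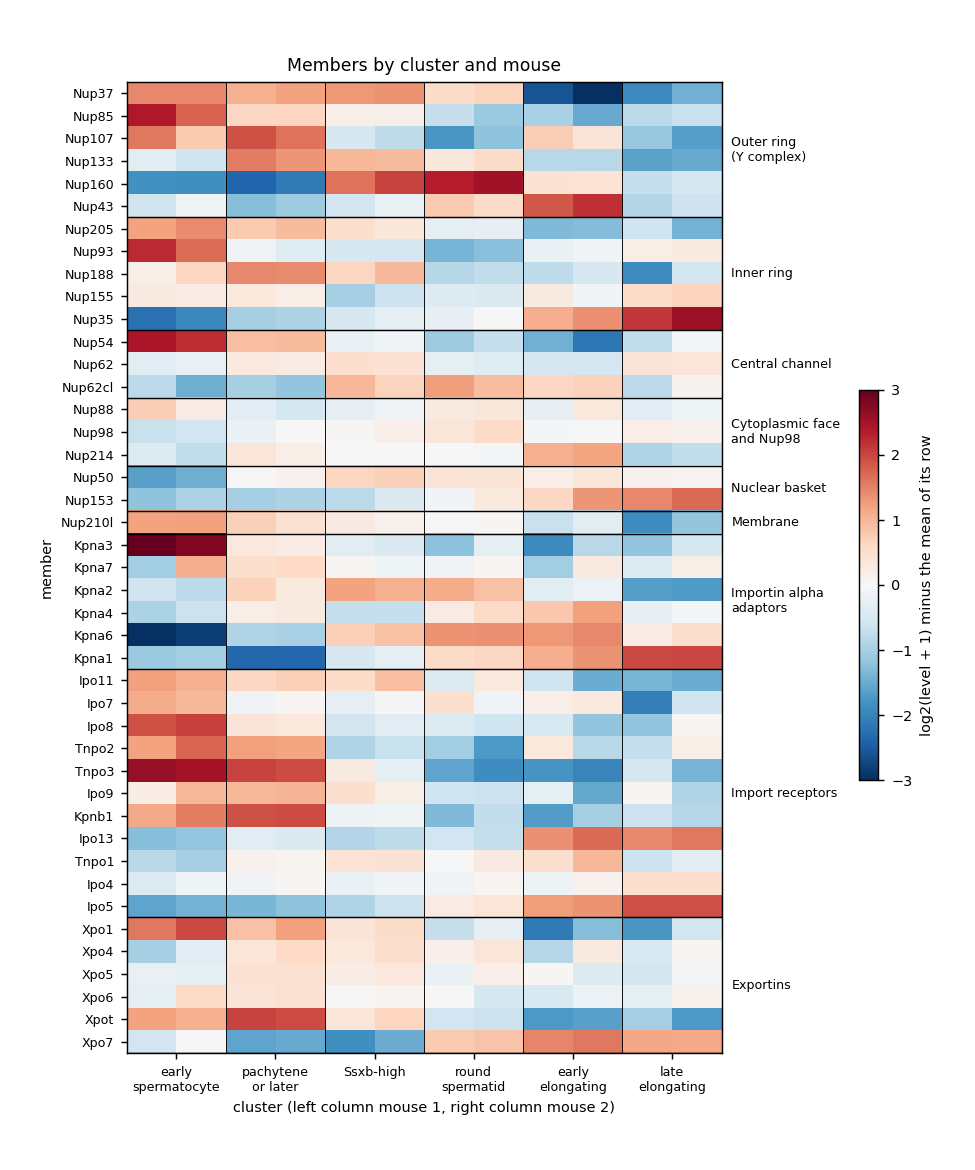
Heat map of the 43 members that passed the filter (rows, grouped by role) in the 6 germ cell clusters (columns in pseudotime order, left column mouse 1 and right column mouse 2). Colour gives log2 of the TMM-scaled level plus 1 minus the row's mean, red above and blue below, and the colour scale stops at 3 in each direction. The 2 mice of a cluster resemble each other, and the outer ring, importin alpha, import receptor and exportin groups hold rows that are red on the left and rows that are red on the right.

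In each cluster the summed members held a small share of all UMIs. That share was 0.195% and 0.183% in the early spermatocyte-like cluster, 0.200% and 0.207% in the pachytene or later cluster, 0.217% and 0.224% in the Ssxb-high cluster, 0.208% and 0.216% in the round spermatid-like cluster, 0.184% and 0.205% in the early elongating cluster and 0.134% and 0.145% in the late elongating cluster. By this share, which is not scaled for RNA composition, both mice of the late elongating cluster lay below those of the other 5. On the TMM scale the late elongating cluster was instead the highest of the 6 in each mouse, with summed levels of 2725 and 2980.1 CPM. Of these, Ipo5 alone made up 1075 and 1086 CPM. The early spermatocyte-like cluster was the lowest on that scale (1200.1 and 1240.2 CPM). The 21 member nucleoporins held less than the 23 member receptors in each of the 6 clusters. Nucleoporins and receptors outside the symbol rule are not in these sums. Among these, Tpr stood at 343 and 363 CPM on the TMM scale in the early spermatocyte-like cluster. The member nucleoporins went from 0.0934% and 0.0814% in the early spermatocyte-like cluster to 0.0417% and 0.0488% in the late elongating cluster. On the TMM scale they went from 576 and 550.5 CPM to 849 and 1006 CPM, so that the direction depends on the scale. It also depends on Nup35, which alone stood at 336 and 457 CPM in the late elongating cluster. Nup35 held 27 and 69 of the 1011 and 1972 nucleoporin UMIs in the early spermatocyte-like cluster. In the late elongating cluster it held 594 and 696 of 1502 and 1533. The receptors' share went from 0.101% and 0.102% to 0.133% and 0.138% in the round spermatid-like cluster and to 0.0921% and 0.0958% in the late elongating cluster. On the TMM scale the receptors went from 624 and 690 CPM to 1313 and 1364 CPM and to 1876 and 1974 CPM in these clusters. The direction of the last change thus depends on the scale as well. It also rests on Ipo5, which alone went from 336 and 364 CPM to 1075 and 1086 CPM, a larger rise than that of the sum. Ipo5 held 1463 and 2236 of the receptors' 5721 and 8378 UMIs in the round spermatid-like cluster. In the late elongating cluster it held 1901 and 1655 of 3319 and 3008. These sums are descriptions of a chosen list and were not tested.

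Among the outer ring genes, whose 6 measured products belong to the Y complex, no step moved all members the same way. Nup160 rose sharply between the pachytene or later and the Ssxb-high cluster, while Nup107 and Nup133 fell at that step. Nup37 fell later, at step 3 (log2 fold change -0.73 ± 0.14 (SE), adjusted p = 0.00019) and most from the round spermatid-like to the early elongating cluster. Nup160 lies on chromosome 2, 90677215 to 90736328 (GRCm38, forward strand). Its promoter is shown because it carried the largest single rise among the named members, as the 250 bases before the RefSeq start (GRCm38.p6, forward strand, chr2:90676965-90677214). Capitals mark the only match in this window to a motif searched, GTTGCC, a core site of the RFX factors known from ciliated and germ cells, here on the reverse strand.

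Nup160: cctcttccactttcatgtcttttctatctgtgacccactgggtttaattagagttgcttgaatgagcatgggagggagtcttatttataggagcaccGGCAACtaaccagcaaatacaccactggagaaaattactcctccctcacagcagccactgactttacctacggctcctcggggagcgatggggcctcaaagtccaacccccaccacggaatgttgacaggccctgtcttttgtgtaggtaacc

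Promoter windows of 300 bases (250 before and 50 after the start) were matched by symbol for 35 of the 44 members in the RefSeq table, as 42 windows. GTTGCC on either strand was present in 4 of these (9.52%) and in 12.5% of all 32851 windows. TGACGTCA, the palindromic cAMP response element bound by CREM, was found in 2 member windows (Nup214 and Nup133) and in 1.79% of all windows. AACCGTT, a site of MYB factors, was found in 3 windows of Ipo9 and Nup98 and in 0.913% of all windows. The windows of Ipo9 overlap and hold the same site. A match describes letters in a window and is not evidence of binding.

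The levels of Nup160 were 3.99 and 3.91 in the early spermatocyte-like cluster, 2.39 and 3.01 in the pachytene or later cluster, 52.9 and 70.3 in the Ssxb-high cluster, 88.8 and 98.8 in the round spermatid-like cluster, 22.6 and 22.2 in the early elongating cluster and 9.61 and 11.2 in the late elongating cluster. In both mice the gene was lowest in spermatocytes and highest in the round spermatid-like cluster, with no overlap between them. The step 2 difference was log2 fold change 4.52 ± 0.20 (SE), adjusted p = 1.6e-14, and at step 4 the gene fell again (log2 fold change -2.07 ± 0.19 (SE), adjusted p = 8e-09). Nup37, a WD-repeat subunit of the complex, had levels of 78.7 and 79.0 in the early spermatocyte-like cluster, 60.8 and 67.0 in the pachytene or later cluster, 71.3 and 74.2 in the Ssxb-high cluster, 42.2 and 45.4 in the round spermatid-like cluster, 3.87 and 2.47 in the early elongating cluster and 6.78 and 9.84 in the late elongating cluster. On this scale it was highest in early spermatocyte-like cells and scarce in early elongating cells, where 6 and 5 UMIs were counted in the 2 mice (log2 fold change -3.82 ± 0.28 (SE), adjusted p = 1.3e-10 at step 4). A call at step 5 in the opposite direction (log2 fold change 1.41 ± 0.41 (SE), adjusted p = 0.013) rested on 12 and 15 UMIs in the late elongating cluster and had the other sign with UMIs per cell. Nup85, a scaffold subunit, stood at 29.1 and 18.4 in the early spermatocyte-like cluster, 7.83 and 7.93 in the pachytene or later cluster, 5.44 and 5.42 in the Ssxb-high cluster, 2.52 and 1.63 in the round spermatid-like cluster, 1.94 and 0.988 in the early elongating cluster and 2.26 and 2.63 in the late elongating cluster. It fell at step 1 (log2 fold change -1.53 ± 0.25 (SE), adjusted p = 2.3e-05) and again at step 3 (log2 fold change -1.42 ± 0.35 (SE), adjusted p = 0.002).

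The other 3 outer ring genes had their peaks in other clusters still. Nup43 had its highest level in the early elongating cluster, Nup107 and Nup133 theirs in the pachytene or later cluster, and their log2 ranges were 3.22, 3.22 and 2.99. These values were chosen after they were seen, since the naming rule took the 3 largest ranges of the group. Nup43 went from 48.7 and 42.01 in the round spermatid-like to 105 and 131 in the early elongating cluster and down to 14.7 and 17.7 in the late elongating cluster (log2 fold change -2.88 ± 0.23 (SE), adjusted p = 1.8e-09 at step 5). Nup133 rose at step 1 (log2 fold change 1.97 ± 0.17 (SE), adjusted p = 3.5e-09) and was lower at each of the 4 steps that follow. Nup107 fell at step 2 (log2 fold change -2.68 ± 0.26 (SE), adjusted p = 6.4e-09), where Nup160 rose. Both encode core subunits of the Y complex. Nup107 rose again at step 4 (log2 fold change 2.47 ± 0.45 (SE), adjusted p = 7.7e-05) and fell at step 5 (log2 fold change -2.38 ± 0.58 (SE), adjusted p = 0.002). These 2 calls rest on few UMIs, 5 and 13 in the round spermatid-like, 17 and 17 in the early elongating and 4 and 2 in the late elongating cluster.

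In the inner ring, Nup35 was higher in each later cluster on the TMM scale, and Nup93 and Nup205 fell from their highest levels in early spermatocyte-like cells. Nup35, a small inner ring subunit that also contacts the membrane, had levels of 15.4 and 19.3 in the early spermatocyte-like cluster, 38.2 and 40.2 in the pachytene or later cluster, 54.5 and 62.5 in the Ssxb-high cluster, 64.7 and 76.0 in the round spermatid-like cluster, 164 and 199 in the early elongating cluster and 336 and 457 in the late elongating cluster. The 2 mice rose in parallel from cluster to cluster. Its largest step was step 4 (log2 fold change 1.37 ± 0.16 (SE), adjusted p = 3.6e-07), and it passed the test in the upward direction at 4 of the 5 steps. Of these, the log2 fold changes at steps 2 and 5 turned negative with UMIs per cell (-0.23 and -0.40). The gene overlaps Dusp19 on the same strand, which had 4376 UMIs, and how the overlap was counted was not tested. Nup93, which links the inner ring to the channel, had levels of 28.5 and 19.3 in the early spermatocyte-like cluster, 4.85 and 3.92 in the pachytene or later cluster, 3.54 and 3.45 in the Ssxb-high cluster, 1.38 and 1.63 in the round spermatid-like cluster, 4.52 and 4.94 in the early elongating cluster and 6.22 and 6.56 in the late elongating cluster. Only the early spermatocyte-like cluster stood out, and the fall at step 1 was the largest (log2 fold change -2.38 ± 0.26 (SE), adjusted p = 8.7e-08). A smaller rise at step 4 rested on 16 UMIs in the round spermatid-like and 17 in the early elongating cluster (log2 fold change 1.63 ± 0.49 (SE), adjusted p = 0.0091).

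Nup205, a large scaffold subunit of the inner ring, was measured at 49.6 and 57.8 in the early spermatocyte-like cluster, 37.2 and 41.5 in the pachytene or later cluster, 29.8 and 27.0 in the Ssxb-high cluster, 17.2 and 17.6 in the round spermatid-like cluster, 7.74 and 7.91 in the early elongating cluster and 13.6 and 7.22 in the late elongating cluster. It fell at each of steps 1 to 4, most at step 4 (log2 fold change -1.15 ± 0.28 (SE), adjusted p = 0.0015), and did not pass the test at step 5. Nup188, its relative, was highest in the pachytene or later cluster, and Nup155 in the late elongating cluster, with log2 ranges of 2.50 and 1.41. At step 3 the group had 0 of 5 members rising and 3 falling (background 26.6% and 19%), and at step 5 it had 1 rising (Nup35) and 0 falling (background 16.4% and 23.2%).

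The central channel genes differed from each other in both level and direction. Nup62, which encodes the main channel nucleoporin, had a log2 range of 0.97, among the smaller ones of the members. Its levels were 50.7 and 55.8 in the early spermatocyte-like cluster, 79.2 and 77.6 in the pachytene or later cluster, 92.3 and 87.3 in the Ssxb-high cluster, 53.0 and 50.1 in the round spermatid-like cluster, 45.2 and 45.5 in the early elongating cluster and 84.8 and 84.0 in the late elongating cluster. They rose at step 1, fell at step 3 and rose again at step 5 (log2 fold change 0.90 ± 0.16 (SE), adjusted p = 8.6e-05), where the sign was the opposite with UMIs per cell (-0.63). The gene shares its strand and part of its span with Il4i1 (5828 UMIs). Nup54, a partner of Nup62, had levels of 23.4 and 19.8 in the early spermatocyte-like cluster, 7.38 and 7.63 in the pachytene or later cluster, 2.86 and 3.15 in the Ssxb-high cluster, 1.15 and 1.79 in the round spermatid-like cluster, 0.645 and 0 in the early elongating cluster and 1.70 and 3.28 in the late elongating cluster. It was a gene of early spermatocyte-like cells, lower at step 1 (log2 fold change -1.50 ± 0.25 (SE), adjusted p = 3.1e-05) and lower again at step 2 (log2 fold change -1.31 ± 0.27 (SE), adjusted p = 0.00026). A nominally larger rise at step 5 (log2 fold change 3.02 ± 1.09 (SE), adjusted p = 0.031) set 8 UMIs in the late elongating cluster against 1 UMI in the early one, and it missed the threshold with DESeq2 (adjusted p = 0.064). The value was 5.16 without mouse 1 and 1.28 without mouse 2.

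Nup62cl, an X-linked gene related to the C-terminal part of Nup62 (chromosome X, 140006805 to 140062712, GRCm38, reverse strand), was sparse, with 150 UMIs in all. Its levels were 0.570 and 0 in the early spermatocyte-like cluster, 0.373 and 0.201 in the pachytene or later cluster, 4.49 and 3.35 in the Ssxb-high cluster, 5.51 and 4.23 in the round spermatid-like cluster, 3.23 and 3.46 in the early elongating cluster and 0.565 and 1.97 in the late elongating cluster. Hardly any of it was seen in spermatocytes, with 1 UMI in the early spermatocyte-like and 7 in the pachytene or later cluster, whereas the Ssxb-high cluster had 33 and 34 UMIs in the 2 mice and the round spermatid-like cluster 24 and 26. The rise at step 2 was log2 fold change 3.59 ± 0.48 (SE), adjusted p = 1.1e-06, and no other step passed the test.

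**Figure D2:**
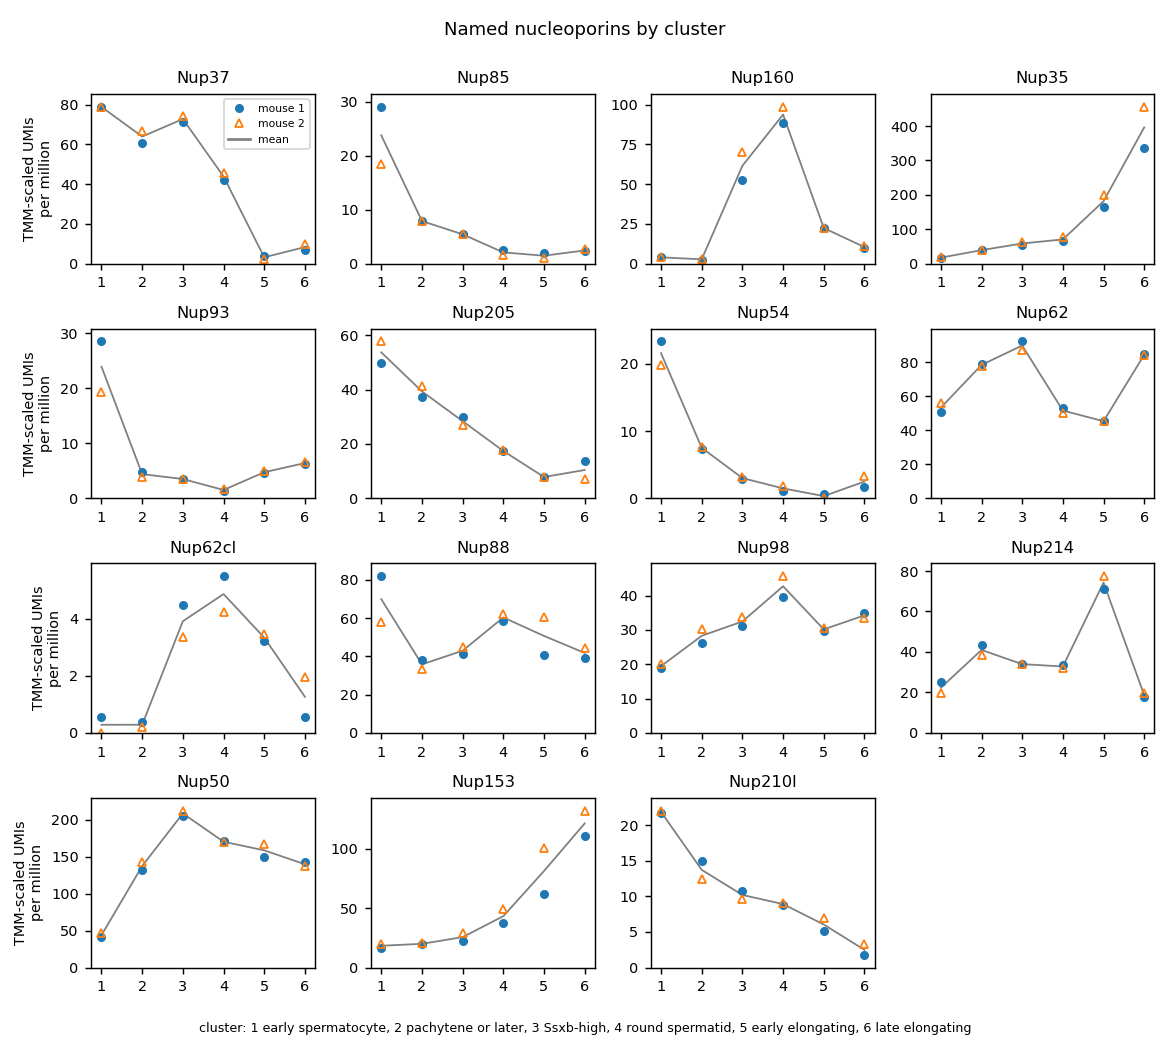
Levels of the 15 named nucleoporins in TMM-scaled CPM (vertical axes from 0, a different scale for each gene) in the 6 germ cell clusters (horizontal axis, numbered in pseudotime order). Filled circles are mouse 1, open triangles mouse 2 and the grey line their mean. Nup160 peaks in clusters 3 and 4, Nup35 and Nup153 rise to cluster 6, and Nup37 drops between clusters 4 and 5.

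On the cytoplasmic face, Nup214 and Nup88 form a pair that takes part in export, and Nup98 lines the channel from both sides. Their log2 ranges were 1.94 for Nup214, 0.95 for Nup88 and 1.10 for Nup98. Nup214 had levels of 25.1 and 19.5 in the early spermatocyte-like cluster, 43.3 and 38.6 in the pachytene or later cluster, 34.0 and 34.0 in the Ssxb-high cluster, 33.7 and 31.9 in the round spermatid-like cluster, 71.0 and 77.6 in the early elongating cluster and 17.5 and 19.7 in the late elongating cluster. It stood highest in the early elongating cluster in both mice and then fell at step 5 (log2 fold change -2.00 ± 0.20 (SE), adjusted p = 4.8e-08). Nup88 was measured at 82.1 and 57.8 in the early spermatocyte-like cluster, 38.0 and 33.6 in the pachytene or later cluster, 41.1 and 44.9 in the Ssxb-high cluster, 58.5 and 62.2 in the round spermatid-like cluster, 40.7 and 60.8 in the early elongating cluster and 39.0 and 44.6 in the late elongating cluster. The 2 mice differed on its highest cluster, and its largest step was the fall at step 1 (log2 fold change -0.93 ± 0.18 (SE), adjusted p = 0.00016). Nup98 had levels of 18.8 and 20.1 in the early spermatocyte-like cluster, 26.2 and 30.4 in the pachytene or later cluster, 31.3 and 33.7 in the Ssxb-high cluster, 39.7 and 45.8 in the round spermatid-like cluster, 29.7 and 30.6 in the early elongating cluster and 35.0 and 33.5 in the late elongating cluster. Its largest step, the rise at step 1 (log2 fold change 0.53 ± 0.18 (SE), adjusted p = 0.017), did not pass the test with RLE scaling (adjusted p = 0.26), with library size only (0.18) or with DESeq2 (0.35).

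The nuclear basket members, Nup50 and Nup153, were both higher after the early spermatocyte-like cluster, at different times. Tpr, a nucleoporin that the symbol rule leaves out, went the other way and was chosen after its values were seen. It went from 343 and 363 in the early spermatocyte-like to 108 and 111 in the pachytene or later cluster (log2 fold change -1.69 ± 0.13 (SE), adjusted p = 5.4e-10 at step 1). Nup50, whose product helps importin alpha to release its cargo, was among the more abundant members (9925 UMIs). Its levels were 41.0 and 46.6 in the early spermatocyte-like cluster, 132 and 143 in the pachytene or later cluster, 205 and 212 in the Ssxb-high cluster, 171 and 169 in the round spermatid-like cluster, 149.7 and 168 in the early elongating cluster and 142 and 137 in the late elongating cluster. The largest change was at step 1 (log2 fold change 1.63 ± 0.14 (SE), adjusted p = 4e-09), with a smaller rise at step 2 (log2 fold change 0.60, but -0.21 with UMIs per cell). Nup153, an anchor of the basket, had levels of 16.5 and 20.1 in the early spermatocyte-like cluster, 19.4 and 20.5 in the pachytene or later cluster, 22.0 and 29.1 in the Ssxb-high cluster, 37.2 and 49.2 in the round spermatid-like cluster, 61.9 and 100.3 in the early elongating cluster and 110.2 and 132 in the late elongating cluster. It rose at steps 3, 4 and 5, most at step 4 (log2 fold change 0.92 ± 0.20 (SE), adjusted p = 0.00076), which with library size only missed the threshold (adjusted p = 0.063). Its step 5 rise (log2 fold change 0.56) was -0.04 with library size only and -0.96 with UMIs per cell. In the early elongating cluster the 2 mice differed for this gene by 0.70 on the log2 scale, the second largest such difference among members with at least 100 UMIs in a cluster. Nup210l, a relative of the pore membrane protein gp210, had levels of 21.7 and 22.1 in the early spermatocyte-like cluster, 14.99 and 12.4 in the pachytene or later cluster, 10.7 and 9.65 in the Ssxb-high cluster, 8.72 and 9.12 in the round spermatid-like cluster, 5.16 and 6.92 in the early elongating cluster and 1.70 and 3.28 in the late elongating cluster. Both mice were lower in each later cluster, and the gene passed the test at step 1 (log2 fold change -0.67 ± 0.21 (SE), adjusted p = 0.01) and at step 5 (log2 fold change -1.33 ± 0.50 (SE), adjusted p = 0.044), the latter on 22 and 8 UMIs, which missed the threshold under 7 of the alternatives, among them the fit with the mouse as a block (log2 fold change -1.34, adjusted p = 0.052).

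Among the importin alpha adaptors, Kpna2 had the largest share of UMIs in both spermatocyte clusters and Kpna6 in the round spermatid-like and early elongating clusters. In the Ssxb-high cluster Kpna2 led in mouse 1 and Kpna6 in mouse 2. In the late elongating cluster Kpna1 led in mouse 1 and Kpna6, by a small margin, in mouse 2. Shares among the UMIs of the 6 detected importin alpha genes do not depend on the scaling between clusters. The share of Kpna3, in percent, was 28.6 and 20.4 in the early spermatocyte-like cluster, 1.85 and 1.96 in the pachytene or later cluster, 0.711 and 0.629 in the Ssxb-high cluster, 0.219 and 0.547 in the round spermatid-like cluster, 0.0989 and 0.318 in the early elongating cluster and 0.387 and 0.673 in the late elongating cluster. Kpna2 made up 33.8 and 31.1% in the early spermatocyte-like cluster, 48.8 and 41.6% in the pachytene or later cluster, 45.6 and 40.8% in the Ssxb-high cluster, 32.0 and 27.1% in the round spermatid-like cluster and 7.73 and 6.73% in the late elongating cluster. Kpna6 had 6.76 and 8.56% in the early spermatocyte-like, 38.3 and 42.2% in the Ssxb-high, 44.5 and 45.4% in the round spermatid-like and 34.1 and 37.8% in the late elongating cluster. Kpna1 fell to 2.18 and 2.43% in the pachytene or later cluster and reached 40.7 and 37.3% in the late elongating cluster, beside 16.9 and 17.2% for Kpna4. These are shares of 3'-end tags and carry no test of their own.

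**Figure D3:**
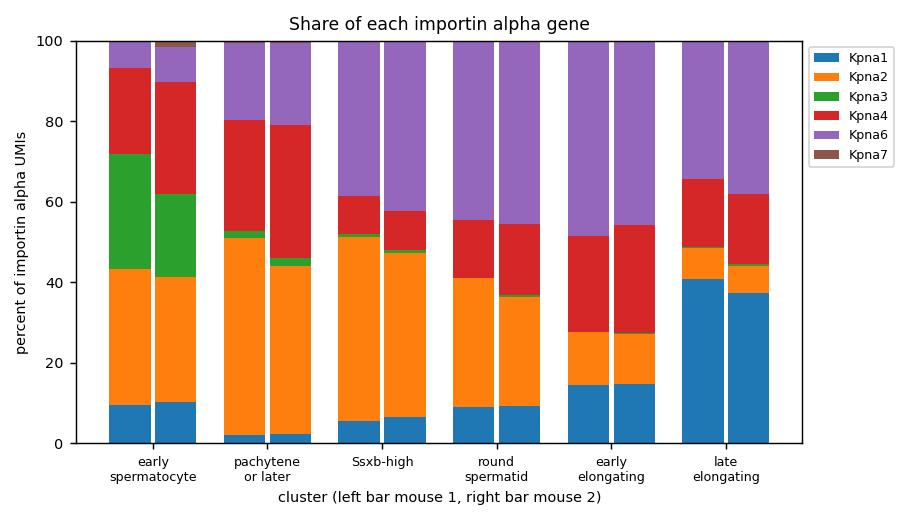
Stacked bars of each importin alpha gene's share (percent, vertical axis from 0 to 100) of the UMIs of the 6 importin alpha genes in each germ cell cluster, with mouse 1 on the left and mouse 2 on the right of each pair. Kpna3 is visible mainly in the first pair, Kpna2 is widest in the pachytene or later pair and shrinks after it, and Kpna1 is widest in the late elongating cluster (40.7% and 37.3%).

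Kpna6 had levels of 14.3 and 17.3 in the early spermatocyte-like cluster, 68.3 and 65.6 in the pachytene or later cluster, 213 and 238 in the Ssxb-high cluster, 327 and 338 in the round spermatid-like cluster, 317 and 353 in the early elongating cluster and 149.8 and 184 in the late elongating cluster. It rose at steps 1, 2 and 3, most at step 1 (log2 fold change 2.05 ± 0.18 (SE), adjusted p = 4e-09), and fell at step 5 (log2 fold change -1.01 ± 0.14 (SE), adjusted p = 5.2e-06). Kpna1 was measured at 19.95 and 20.9 in the early spermatocyte-like cluster, 7.83 and 7.83 in the pachytene or later cluster, 31.3 and 36.6 in the Ssxb-high cluster, 66.1 and 68.9 in the round spermatid-like cluster, 94.9 and 115 in the early elongating cluster and 179 and 182 in the late elongating cluster. Both mice had their lowest value in the pachytene or later cluster and their highest in the late elongating one. After a fall at step 1 (log2 fold change -1.39 ± 0.19 (SE), adjusted p = 2.8e-06) it rose at each of the 4 steps that follow, most at step 2 (log2 fold change 2.12 ± 0.16 (SE), adjusted p = 1.1e-10). Only the step 5 rise (log2 fold change 0.78) turned negative with UMIs per cell (-0.75). Kpna3 had levels of 60.4 and 41.3 in the early spermatocyte-like cluster, 6.64 and 6.32 in the pachytene or later cluster, 3.94 and 3.54 in the Ssxb-high cluster, 1.61 and 4.07 in the round spermatid-like cluster, 0.645 and 2.47 in the early elongating cluster and 1.70 and 3.28 in the late elongating cluster. The mice did not overlap between the first cluster and any other, and the fall at step 1 was the largest of all steps of the named importin alphas (log2 fold change -2.94 ± 0.26 (SE), adjusted p = 5.6e-09).

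Of the remaining adaptors, Kpna2 was highest in the Ssxb-high cluster (253 and 230.1) and fell at steps 4 and 5 (log2 fold change -1.45 ± 0.19 (SE), adjusted p = 2.4e-06 at step 5). Kpna4 was highest in the early elongating cluster (155 and 209) and passed the test at every step, with the direction changing 3 times. Both were described after their values were seen, being outside the 3 largest ranges. Reads of Kpna2 could in part belong to its pseudogene Kpna2-ps, which itself was assigned 28 UMIs. Kpna7 had 92 UMIs in all, passed the test at no step and overlaps a gene with 6095 UMIs (Gm4871) on the same strand.

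**Figure D4:**
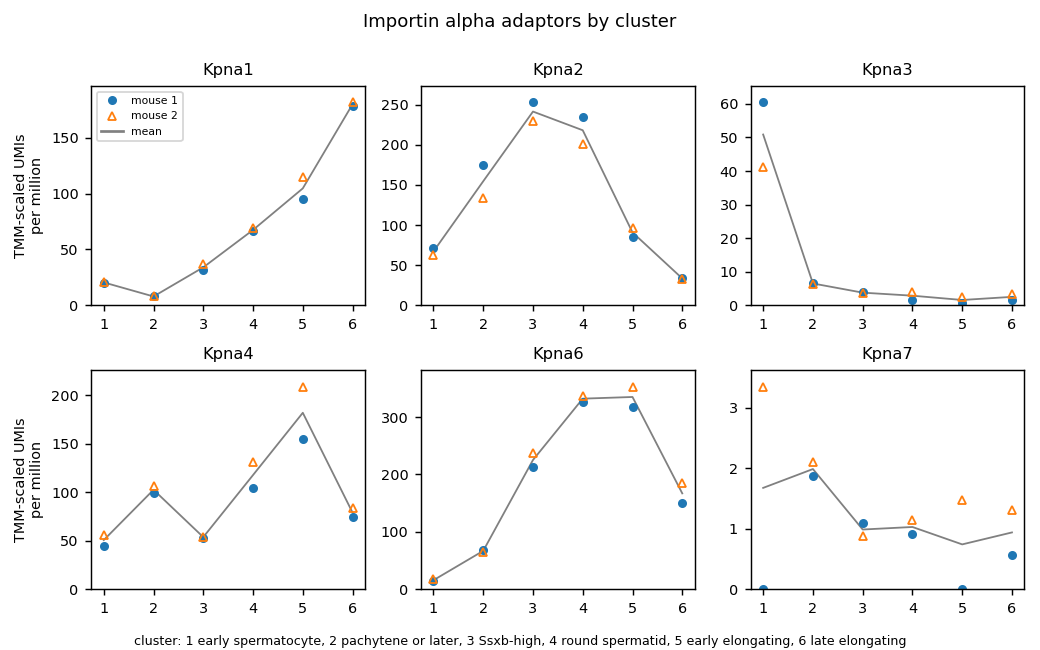
Levels of the 6 importin alpha genes in TMM-scaled CPM (vertical axes from 0, a different scale for each gene) in the 6 germ cell clusters in pseudotime order. Filled circles are mouse 1, open triangles mouse 2 and the grey line their mean. Kpna1 climbs to cluster 6, Kpna3 is high only in cluster 1, and Kpna6 has its highest values in clusters 4 and 5.

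Importin beta and its relatives carry cargo themselves. Ipo5 rose at steps 2 to 5, and Kpnb1, Ipo13, Tnpo1, Tnpo2 and Ipo4 each rose at some step. Ipo4 rose only at step 5 (log2 fold change 0.49), which was -0.11 with library size only and -1.03 with UMIs per cell. The step 4 rise of Tnpo2 set 7 and 3 UMIs in the 2 mice against 5 and 2. Kpnb1 and Tnpo3 were low in the round spermatid-like and elongating clusters. Ipo5, an importin of ribosomal proteins and histones among other cargo, was the member with most UMIs (15977 in all). It lies on chromosome 14, 120911224 to 120947999 (GRCm38, forward strand), with 2 start sites in the RefSeq table. The 250 bases before each are shown because Ipo5 dominated the receptors and the 3'-end tags cannot tell which start was used. Neither holds a motif searched. The upstream one (chr14:120910944-120911193) is 82.4% G and C, and the downstream one (chr14:120915597-120915846) 35.2%.

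Ipo5 upstream start: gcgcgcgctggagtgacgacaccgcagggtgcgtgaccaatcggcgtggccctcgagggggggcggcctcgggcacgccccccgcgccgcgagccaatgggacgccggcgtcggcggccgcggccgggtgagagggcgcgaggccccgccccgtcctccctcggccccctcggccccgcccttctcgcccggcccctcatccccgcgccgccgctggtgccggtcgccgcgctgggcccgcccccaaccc
Ipo5 downstream start: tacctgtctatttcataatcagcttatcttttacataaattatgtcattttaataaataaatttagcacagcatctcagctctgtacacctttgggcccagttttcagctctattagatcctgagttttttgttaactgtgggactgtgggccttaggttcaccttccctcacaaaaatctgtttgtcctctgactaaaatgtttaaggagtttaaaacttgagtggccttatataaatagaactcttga

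The levels of Ipo5 were 93.5 and 106 in the early spermatocyte-like cluster, 109 and 122 in the pachytene or later cluster, 152 and 183 in the Ssxb-high cluster, 336 and 364 in the round spermatid-like cluster, 674 and 725 in the early elongating cluster and 1075 and 1086 in the late elongating cluster. On the TMM scale each cluster exceeded the one before it in both mice. The test was passed at steps 2 to 5, with the largest difference at step 3 (log2 fold change 1.06 ± 0.14 (SE), adjusted p = 9.1e-07). The differences at steps 2 and 5 were negative with UMIs per cell (-0.27 and -0.90, where the median of all genes was -0.82 and -1.51). With library size only, the step 5 difference was 0.03, where the median of all genes was -0.59. Among the UMIs of the 11 import receptors, Ipo5 made up 28.4 and 28.5% in the early spermatocyte-like cluster, 46.2 and 49.6% in the Ssxb-high cluster and 79.2 and 78.1% in the late elongating cluster. Kpnb1, importin beta, went the other way. Its levels were 46.7 and 62.2 in the early spermatocyte-like cluster, 81.1 and 83.7 in the pachytene or later cluster, 18.8 and 18.9 in the Ssxb-high cluster, 7.80 and 12.05 in the round spermatid-like cluster, 5.81 and 9.88 in the early elongating cluster and 13.001 and 11.2 in the late elongating cluster. It rose at step 1 (log2 fold change 0.57 ± 0.17 (SE), adjusted p = 0.0089) and was highest in the pachytene or later cluster. It then fell at step 2 (log2 fold change -2.13 ± 0.17 (SE), adjusted p = 5e-10) and at step 3 (log2 fold change -0.89 ± 0.21 (SE), adjusted p = 0.0013). Its share of the receptors' UMIs went from 20.6 and 20.3% to 0.959 and 0.803% between the pachytene or later and the late elongating cluster.

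Tnpo3, the import receptor of serine- and arginine-rich splicing factors, had levels of 46.7 and 43.0 in the early spermatocyte-like cluster, 30.5 and 29.3 in the pachytene or later cluster, 8.43 and 5.32 in the Ssxb-high cluster, 1.61 and 1.1398 in the round spermatid-like cluster, 1.29 and 0.988 in the early elongating cluster and 4.52 and 1.97 in the late elongating cluster. Spermatocytes of both mice were above all later clusters. It fell at steps 1, 2 and 3, most at step 3 (log2 fold change -2.31 ± 0.36 (SE), adjusted p = 1.3e-05), and in the early elongating cluster 2 UMIs were counted in each mouse. The other 8 receptors were Ipo4, Ipo7, Ipo8, Ipo9, Ipo11, Ipo13, Tnpo1 and Tnpo2. Ipo7, Ipo8, Ipo11 and Tnpo2 were highest in the early spermatocyte-like cluster, Ipo9 in the pachytene or later, Ipo13 and Tnpo1 in the early elongating and Ipo4 in the late elongating cluster. Their log2 ranges were between 0.76 (Ipo4) and 2.84 (Tnpo2). At step 4, Ipo5, Ipo13, Tnpo1 and Tnpo2 rose and Ipo11 fell. Ipo13, which can both import and export cargo, was chosen after its values were seen. It went from 33.3 and 30.1 in the round spermatid-like to 131 and 165 in the early elongating cluster (log2 fold change 2.23 ± 0.16 (SE), adjusted p = 8.8e-11). At step 2, 1 of the 11 receptors rose (Ipo5) and 6 fell (background 32.3% and 30%).

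Xpo7 stood apart from the other exportins. Xpo1 carries cargo with a leucine-rich export signal, and Xpot is the exportin of transfer RNA. Both were low in the round spermatid-like and elongating clusters, whereas Xpo7 came up between the Ssxb-high and the round spermatid-like cluster. Xpo7 had levels of 11.97 and 18.1 in the early spermatocyte-like cluster, 5.37 and 5.72 in the pachytene or later cluster, 4.35 and 5.81 in the Ssxb-high cluster, 32.1 and 33.7 in the round spermatid-like cluster, 52.3 and 56.3 in the early elongating cluster and 41.8 and 41.3 in the late elongating cluster. On the TMM scale the round spermatid-like and both elongating clusters of both mice did not overlap with the 3 clusters before them, among them the Ssxb-high cluster. With UMIs per cell the late elongating cluster (0.26 and 0.27) instead lay below the early spermatocyte-like one (0.40 and 0.59). After a fall at step 1 (log2 fold change -1.51 ± 0.23 (SE), adjusted p = 1.1e-05), the rise at step 3 was log2 fold change 2.67 ± 0.20 (SE), adjusted p = 4.1e-10, and a smaller one followed at step 4 (log2 fold change 0.72 ± 0.18 (SE), adjusted p = 0.0025). In the early elongating cluster Xpo7 made up 59.1 and 54.3% of the UMIs of the 6 exportins, after 4.87 and 4.88% in the pachytene or later cluster. The gene overlaps Npm2 on the same strand, with 382 UMIs against 997 for Xpo7.

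Xpo1 was measured at 20.5 and 27.4 in the early spermatocyte-like cluster, 12.3 and 15.8 in the pachytene or later cluster, 8.43 and 9.55 in the Ssxb-high cluster, 3.44 and 5.05 in the round spermatid-like cluster, 0.645 and 1.98 in the early elongating cluster and 1.13 and 3.94 in the late elongating cluster. It fell at each of steps 1 to 4 (log2 fold change -1.62 ± 0.61 (SE), adjusted p = 0.036 at step 4, the largest). That step rests on 46 UMIs in the round spermatid-like and 5 in the early elongating cluster, missed the threshold with DESeq2 (adjusted p = 0.072), and was a difference of -0.83 (adjusted p = 0.21) when the late elongating cluster was set directly after the round one. Xpot had levels of 16.5 and 15.1 in the early spermatocyte-like cluster, 29.9 and 28.8 in the pachytene or later cluster, 8.84 and 10.8 in the Ssxb-high cluster, 4.13 and 3.91 in the round spermatid-like cluster, 1.29 and 1.48 in the early elongating cluster and 2.83 and 1.31 in the late elongating cluster. It rose at step 1 (log2 fold change 0.91 ± 0.20 (SE), adjusted p = 0.00077) and fell at steps 2, 3 and 4, most at step 2 (log2 fold change -1.57 ± 0.18 (SE), adjusted p = 1.3e-07). Xpo4, Xpo5 and Xpo6 have cargo such as eIF5A, microRNA precursors and actin with profilin. By the mean of both mice they were highest in the pachytene or later cluster, with log2 ranges of 1.12, 0.74 and 0.72. Of these, Xpo4 and Xpo5 rose at step 1 and none passed the test later. In mouse 2, Xpo6 was higher in the early spermatocyte-like (40.5) than in the pachytene or later cluster (36.9).

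**Figure D5:**
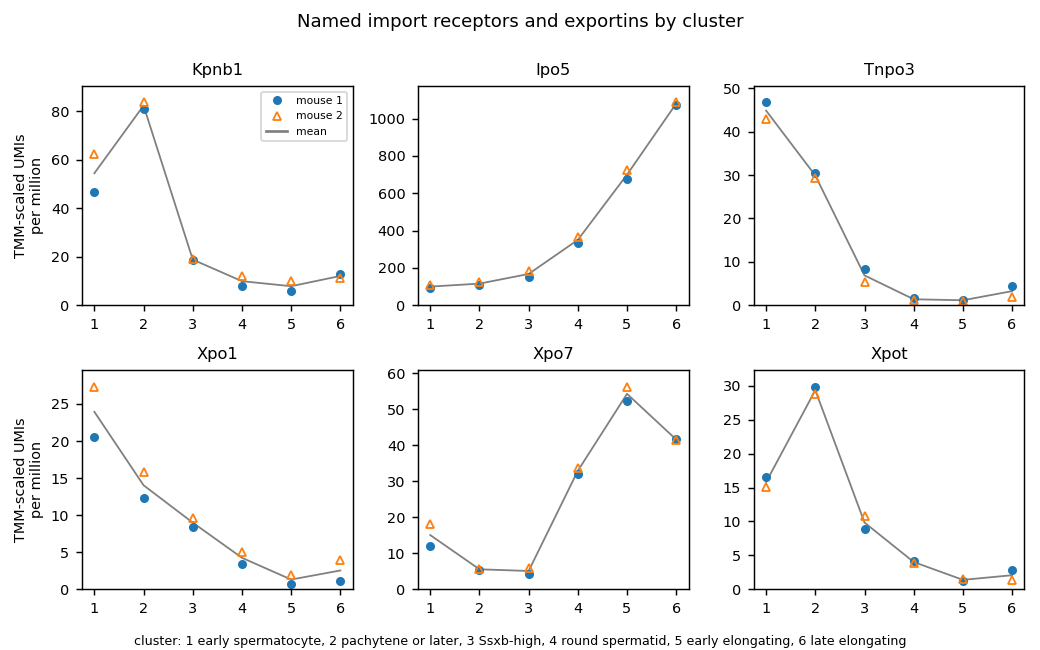
Levels of the named import receptors (Kpnb1, Ipo5, Tnpo3) and exportins (Xpo1, Xpo7, Xpot) in TMM-scaled CPM (vertical axes from 0, a different scale for each gene) in the 6 germ cell clusters in pseudotime order. Filled circles are mouse 1, open triangles mouse 2 and the grey line their mean. Ipo5 climbs to 1075 and 1086 in cluster 6, Xpo7 is high from cluster 4 on, and the other 4 genes are lowest in clusters 4 to 6.

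The 45 other transport genes, of which 42 could be tested, were counted beside the members. Rising and falling numbered 9 and 15 at step 1, 6 and 17 at step 2, 6 and 12 at step 3, 8 and 16 at step 4, and 4 and 7 at step 5. The shares of all genes were those given above for the members. Falling genes outnumbered rising ones at each step of this fit. At step 1 this did not hold with UMIs per cell (15 rising and 10 falling, background 35.2% and 15.5%). It also did not hold there without the filter on low counts (11 and 11, background 15.6% and 10.6%). At step 5 it did not hold with RLE scaling (7 and 6, background 21.5% and 19%) or DESeq2 (6 and 6, background 20.2% and 17.7%). The same was true at step 5 with the 2000 most variable rows in the clustering (6 and 6, background 16.3% and 23.3%). Among genes of the Ran cycle, Rangap1 (the GTPase activator at the cytoplasmic side) rose from 24.3 and 28.5 in the Ssxb-high to 169 and 182 in the round spermatid-like and 921 and 1145 in the late elongating cluster (log2 fold change 2.73 ± 0.15 (SE), adjusted p = 4.8e-12 at step 3). Rcc1, the chromatin-bound exchange factor that loads Ran with GTP, took the same course, with 21.1 and 26.2, 88.4 and 106 and 1045 and 1266 in these clusters (log2 fold change 2.27 ± 0.15 (SE), adjusted p = 2.9e-11 at step 4). By UMIs per cell, Rangap1 and Rcc1 were highest in the early elongating cluster, and by CPM without TMM scaling in the late elongating one. Ran itself was higher in the pachytene or later cluster (1542 and 1621) than in the early elongating one (720.1 and 791). Cse1l, the exportin that returns importin alpha to the cytoplasm, fell at step 1 (log2 fold change -1.90 ± 0.20 (SE), adjusted p = 7.5e-08). This left 6.41 and 7.23 in the pachytene or later cluster. Cse1l rose at step 2 (adjusted p = 1.4e-05), to 14.1 and 15.9 in the Ssxb-high cluster. It stood at 21.3 and 20.3 in the early elongating cluster and fell at step 5 (log2 fold change -1.70 ± 0.31 (SE), adjusted p = 0.0001). For messenger RNA export, 2 genes rose and 9 fell at step 2, of 18 tested (background 32.3% rising and 30% falling). Nxt1 fell at step 4 (log2 fold change -1.96 ± 0.16 (SE), adjusted p = 8.9e-10). These 5 genes were chosen after their values were seen.

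Among members with at least 100 UMIs in the cluster, 0 of 26, 39, 30, 24, 17 and 14 members in the 6 clusters differed by more than 2-fold between the mice, compared with 0.710% to 1.33% of all genes with that depth. The largest difference was that of Xpo6 in the early spermatocyte-like cluster, with levels of 21.7 and 40.5 (0.90 on the log2 scale, mouse 2 over mouse 1). In that cluster 19.2% of the members with this depth differed by over 0.5 on the log2 scale, beside 14.2% of all genes. In the early elongating cluster the share was 17.6% of the 17 members, beside 7.37% of all genes. Each of the 17 was higher in mouse 2 (from 0.0094 to 0.70, median 0.27, where the median of all genes was 0.07).

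Outside the 6 ordered germ cell clusters, 3 clusters held 7 Sertoli-like, 7 spermatogonium-like and 5 Leydig-like cells, too few for a comparison. Mouse 1 and mouse 2 gave 6 and 1 of the Sertoli-like, 3 and 4 of the spermatogonium-like and 1 and 4 of the Leydig-like cells. In the Sertoli-like cells Tnpo3 had the most UMIs of the members, 15, or 177 CPM (exact Poisson 95% interval 99.0 to 292, counting error only). The spermatogonium-like cells had 14 UMIs of Nup93, or 187 CPM (102 to 314), and 13 each of Ipo4 and Nup88. Nup62cl, sparse in the germ cell series, had 3 UMIs in each mouse in the Sertoli-like cells, or 70.8 CPM (26.0 to 154). It had 2 and 1 UMIs in the spermatogonium-like and 0 in the Leydig-like cells. In the Leydig-like cells all 44 members together reached 552 CPM (367 to 798), beside 2017 (1726 to 2343) in Sertoli-like and 2462 (2119 to 2844) in spermatogonium-like cells. By this measure the 6 ordered germ cell clusters ranged from 1388 CPM (late elongating) to 2215 CPM (Ssxb-high).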

How the data were processed

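A part of the testis tissue of 2 wild-type mice was dissociated, filtered to keep somatic cells few and processed with the 10x Chromium 3' chemistry. The deposited values are UMI counts per gene and cell, which the authors made with Cell Ranger 2.0.0 on mm10 and aggregated with the deeper library downsampled to equal depth per cell. The matrix held 27450497 and 30302332 UMIs, and cells held from 7114 to 154431. Of 51868 rows, 1182 are repeat elements and were kept out of tests. Intervals cover counting error only.

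Cells were clustered by K-means (K = 9, 10 principal components, scikit-learn 1.9.0), without the members and the 45 other transport genes, and ordered by diffusion pseudotime averaged over the 163 starting cells, of which 159 gave the order used. An earlier version used 1 starting cell. The average was adopted after the order of clusters and the counts of calls under another order had been seen, and the other order is given as an alternative. Doublets called by Scrublet in each mouse (25 cells) were kept. UMIs were summed per mouse and cluster and tested with edgeR 4.0.16 (quasi-likelihood, TMM, filterByExpr, Benjamini-Hochberg adjustment over 13879 genes, R 4.3.3), and the script was tested on simulated data. Alternatives were DESeq2 1.42.0, other scalings, filters, clusterings, thinning to 5000 UMIs and a block for the mouse. Sums with the same number come from the same mouse, and the correlations of their deviations between clusters were 0.015 to 0.15. The members and lists were chosen with earlier results of these data known. In each role group, values are given for members with at least 100 UMIs, all of them in groups of up to 3 and otherwise the 3 with the largest range. Positions are from the GENCODE annotation of GRCm38, and promoters from RefSeq.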

Additional observations from a re-analysis of the deposited data

How the results depend on the processing

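Counts of calls are given as rising and falling, and the cause of a change was not tested. Background shares of all genes, rising and falling, stand in brackets. With UMIs per cell, 9 members fell at step 1 (15.5% falling), 4 rose and 33 fell at step 2 (21.1% and 55.6%), 8 rose and 14 fell at step 4 (18.3% and 32.9%), and 0 rose and 31 fell at step 5 (0.339% and 63.6%). The other transport genes then had 15 rising at step 1 (35.2% rising), 3 rising and 33 falling at step 2, 4 rising at step 4, and 0 rising and 35 falling at step 5. With library size only, 6 members rose at step 3 (22% rising), 6 rose and 18 fell at step 4 (17.5% and 39.2%), and 1 rose and 17 fell at step 5 (6.1% and 36.6%), while of the other transport genes 20 fell at step 3 (32.7% falling), 4 rose at step 4, and 2 rose and 18 fell at step 5. RLE scaling gave 7 rising transport genes at step 5 (21.5% rising). Without the filter on low counts, 6 members rose and 18 fell at step 4 (9.5% and 19.9%), and 3 other transport genes rose. DESeq2 gave 5 falling members at step 4 (17.8% falling). With the late elongating cluster placed before the early one, an order added after seeing the data, 15 members fell at step 4 (32.3% falling). Without called doublets, 26 other transport genes fell at step 2 (39% falling). After thinning to 5000 UMIs, 5 members rose at step 3 (21.5% rising), 6 rose and 5 fell at step 4 (19.3% and 16.3%), and 4 rose and 6 fell at step 5 (16.7% and 16.3%), with 5 rising and 7 falling transport genes at step 4 and 4 falling at step 5. The members' share of UMIs was then 0.208% in the early spermatocyte-like and 0.214% in the pachytene or later cluster. Nup62 at step 5 changed sign with UMIs per cell (-0.63). With the mouse as a replicate block, 17 members rose and 15 fell at step 1 (27.4% and 27.2%), 12 and 21 at step 2 (34.7% and 34.5%), 11 and 16 at step 3 (28.8% and 22.8%), 13 and 9 at step 4 (24.6% and 24.3%), and 8 and 10 at step 5 (18.3% and 24.5%), and of the 24 named members only Nup210l at step 5 lost its call. With 1 mouse left out no residual degrees of freedom remain, so the counts have no such test. The log2 fold changes then ranged from -4.15 to -3.42 for Nup37, -1.88 to -1.21 for Nup85, 1.28 to 5.16 for Nup54, 1.92 to 2.25 for Kpna6 and -2.26 to -1.31 for Xpo1, and the other 19 named members moved by less than their standard error. In the early elongating cluster 1 UMI of Nup54 and 5 of Xpo1 were counted, so that small changes of these genes were not detectable there.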
